A study of Mus musculus with 12 samples.

Results

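The perinuclear theca is the cytoskeletal capsule that lies between the nucleus and the membranes of the sperm head. Its anterior part glues the acrosome to the nucleus, and its posterior part, the calyx, holds basic structural proteins and factors that are released into the egg. Several of its proteins are actin-like proteins of male germ cells, and they are laid down while round spermatids elongate. The 8 genes followed here were chosen by their gene symbols: the actin-like genes Actl7a, Actl7b, Actl9, Actrt2 and Actrt3, the germ cell subunit of the actin capping protein, Capza3, and the calyx genes Ccin (calicin) and Cylc2 (cylicin 2). All 8 had 1 row in each of both count tables, among 51826 entries for sperm and 23502 for testes.

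The 12 libraries formed 4 groups of 3 replicates of mice, with Xap5l KO and floxed Xap5 lines made on the C57BL/6J background. Mature sperm came from the cauda epididymis at postnatal day 56 (P56) of WT mice and of Xap5l KO mice, a CRISPR/Cas9 line without Xap5l in any tissue. Whole testes came from P16 mice, either WT or Xap5 cKO. In the cKO mice, floxed Xap5 was deleted in germ cells by the Stra8-driven Cre of a knockin line, so that somatic cells kept the gene. The background of the Cre line is not given in the sources used here. The labels call both control groups WT, and whether the P16 controls carried a floxed allele is not given in them. For the fertility of the cKO males, the study named males with a floxed Xap5 allele (Xap5 fl/Y) as controls. Xap5 and Xap5l are nuclear regulators of transcription, and the study asked which genes of sperm and flagellum formation depend on each.

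Totals ranged from 38881197 to 52308452 counts in sperm and from 32251198 to 36759054 in testes. The targeted gene Xap5l (Fam50b) fell in Xap5l KO sperm by 5.15 on the log2 scale. For Xap5 (Fam50a), Xap5 cKO against WT testes gave -0.33 on the same scale, and the groups did not overlap. Its adjusted p was 0.0495 by edgeR, so it missed the fold change threshold alone and was not called. Whole testes include cells that kept the gene, but their part in this value was not tested. Xap5l stood at -6.48 in the same testes and was called downregulated. The 8 transcripts of the spermatid and sperm marker list (Prm1, Tnp1, Akap4 and others) summed to between 47751 and 139628 CPM (counts scaled to the size of the library) in every sperm library and to at most 1.37 CPM in any testis library. Sperm libraries also held epididymal epithelium markers, 5936 to 8064 CPM in WT and 4204 to 5850 in Xap5l KO, with 0 of 5 tested genes called. Leukocyte markers summed to 673 to 747 CPM in WT and 122 to 430 in Xap5l KO, with 2 of 7 called downregulated. In sperm, replicate 1 of both genotypes stood apart, with scaling factors of 0.821 and 0.808 against 1.08 to 1.12 in the other libraries, and mitochondrial entries took 10.5% to 27.4% of the counts. In testes, WT replicate 3 had fewer counts of Xap5l (197) than WT replicates 1 and 2 (532 and 539).

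The genes are small and mostly uninterrupted. In the GENCODE annotation of GRCm38, 6 of the 8 have a single exon, Actrt3 has 2 and Cylc2 has 5. Of the 8 genes, 5 lie on chromosome 4, Actl7a, Actl7b, Actrt2, Ccin and Cylc2. Actl7a (56743413 to 56744925, plus strand) and Actl7b (56740005 to 56741443, minus strand) are neighbours whose starts lie 1970 bases apart and face away from each other, with no annotated gene between them. Actl9 lies on chromosome 17 (33432896 to 33434268), Actrt3 on chromosome 3 (30597073 to 30599939) and Capza3 on chromosome 6 (140041252 to 140042778). Actrt2 spans 154666433 to 154667867, Ccin 43983483 to 43985423 and Cylc2 51216678 to 51230272 of chromosome 4. The exon of Actl7b overlaps that of Gm26657 on the other strand over 1308 bases, and Capza3 shares 107 exonic bases with Plcz1 on the other strand. Gm26657 had between 8 and 64 counts per sperm library, against 1700 to 9977 for Actl7b. The sources used here do not say if strand was used in counting, so reads of such overlapping pairs may not have been told apart.

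RefSeq promoters of GRCm38.p6 were matched for 6 of the 8 genes, all but Capza3 and Cylc2. The 250 bases before the start are printed for 4 of them, because the divergent neighbours Actl7a and Actl7b and the 2 genes read at P16, Actl7b and Actl9, shared an 8-letter word close to the start, and because Ccin alone held GGGCGGGG and TGACGTCA. Capitals mark TGATGTCA or its reverse TGACATCA in the first 3 genes, GTTGCC in Actl7b, and GGGCGGGG and TGACGTCA in Ccin.
Actl7a, chr4:56743172-56743421, plus strand: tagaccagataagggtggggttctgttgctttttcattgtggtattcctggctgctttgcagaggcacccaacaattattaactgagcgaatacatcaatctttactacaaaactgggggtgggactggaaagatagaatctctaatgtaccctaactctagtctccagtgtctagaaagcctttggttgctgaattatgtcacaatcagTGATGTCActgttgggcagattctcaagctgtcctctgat
Actl7b, chr4:56741426-56741675, minus strand: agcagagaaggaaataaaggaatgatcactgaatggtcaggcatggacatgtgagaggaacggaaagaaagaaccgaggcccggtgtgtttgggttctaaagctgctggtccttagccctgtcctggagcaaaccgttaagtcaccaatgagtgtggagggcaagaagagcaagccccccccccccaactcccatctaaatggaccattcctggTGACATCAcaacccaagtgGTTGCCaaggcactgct
Actl9, chr17:33432649-33432898, plus strand: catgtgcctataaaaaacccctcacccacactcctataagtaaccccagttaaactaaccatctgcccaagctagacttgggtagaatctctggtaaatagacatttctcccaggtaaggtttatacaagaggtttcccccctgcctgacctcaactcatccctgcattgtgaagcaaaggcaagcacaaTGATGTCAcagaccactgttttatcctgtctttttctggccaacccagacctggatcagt
Ccin, chr4:43983254-43983503, plus strand: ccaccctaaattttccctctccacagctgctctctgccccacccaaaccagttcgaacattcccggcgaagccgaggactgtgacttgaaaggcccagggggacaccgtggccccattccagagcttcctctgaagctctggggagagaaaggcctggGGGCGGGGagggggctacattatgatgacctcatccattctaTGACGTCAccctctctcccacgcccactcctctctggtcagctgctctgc

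The word TGATGTCA, searched on both strands and chosen after these promoters had been seen, began at position -40 of Actl7a, -36 of Actl7b and -60 of Actl9, counted from the RefSeq start. It occurred in 3.62% of all 32817 promoter windows of the same length. TGACGTCA, the palindromic cyclic AMP response element that CREM-type factors are known to bind, occurred in Ccin alone, at position -50, and in 1.79% of all windows, and the shorter TGACGT within it in 7.51%. GGGCGGGG was searched because it was named as a shared sequence of Xap5 and Xap5l sites. It occurred in 1 of the 6 promoters, again that of Ccin (position -92), and in 17.6% of all windows. GTTGCC, a core word of RFX sites, was found in Actl7b (position -17) and, reversed, in Actrt2 (position -41), and in 12.5% of all windows. TGACGTAA (0.497% of all windows) and the forkhead word TGTTTAC (3.65%) were in none of the 6. TATAAA was in Actl9 (13.6% of all windows) and CCAAT in Actl7b (37.4%). These matches describe the letters only.

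Levels were compared between genes as CPM per kilobase of exon. Actl7a was the highest of the 8 in WT sperm, with 110 ± 31.6 CPM per kilobase (mean ± SD, n = 3), which placed it at rank 312 of 15987 tested protein-coding genes. Actl9 followed with 79.3 ± 15, Actrt2 with 43.8 ± 10.6 and Actl7b with 31.3 ± 6.11. The calyx genes Ccin and Cylc2 and the capping subunit Capza3 formed a lower tier, with 11.4 ± 3.52, 10.9 ± 3.69 and 10.5 ± 3.88. Their ranges overlapped and their order changed from library to library. Actrt3, an actin-related protein known to bind the testis profilin Pfn3, was far below the rest at 1.87 ± 0.697. Between neighbours in this order, the library ranges did not overlap from Actl9 to Actrt2, from Actl7b to Ccin and from Capza3 to Actrt3. In Xap5l KO sperm, Actl7b moved above Actrt2 to the third place with 108 ± 24 CPM per kilobase, although only 2 of 3 libraries had this order and the ranges of both overlapped.

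**Figure D1:**
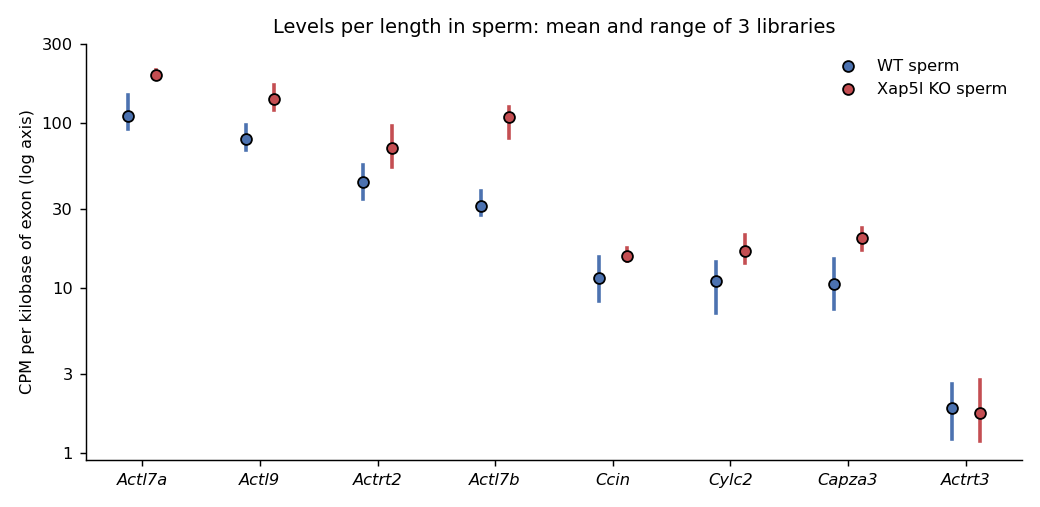
Levels of the 8 genes in sperm as CPM per kilobase of exon (log axis), with the mean (point) and the lowest and highest of 3 libraries (line) for WT (blue) and Xap5l KO (red). Actl7a, Actl9, Actrt2 and Actl7b lie between 27.6 and 210, Ccin, Cylc2 and Capza3 between 7.02 and 23, and Actrt3 at or below 2.77.

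Between WT and Xap5l KO sperm, 1 of the 8 genes was called upregulated, the actin-like gene Actl7b, and none was called downregulated. Among all 20945 tested entries, 7.59% were called upregulated and 1.27% downregulated (edgeR's quasi-likelihood test, adjusted p under 0.05 and fold change above 2). In proportion, 1 of 8 was close to that background. In bulk samples such as these, fewer cells of a type and less RNA per cell cannot be told apart. The median log2 fold change of the 8 genes was 0.75, against -0.08 over all tested entries, whose quartiles were -0.48 and 0.55. Of the 8, 7 had a positive value and Actrt3 a negative one. At an unadjusted p under 0.05, 5 of the 8 were higher (18.6% of all tested entries) and 0 lower (14.9%), and DESeq2 also called 1 upregulated (10.1%) and 0 downregulated (1.67%).

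Actl7b encodes an actin-like protein of spermatids that is needed for the shaping of their heads and tails. Its normalized levels were 55.2, 40.4 and 39.7 CPM in WT sperm replicates 1, 2 and 3, and 169, 180 and 115 CPM in the Xap5l KO replicates. Every Xap5l KO library was at least at 115 CPM and every WT library at most at 55.2, so the groups did not overlap, as held upwards for 19.2% of all tested entries. The log2 fold change was 1.78 (standard error 0.256, 95% confidence interval 1.21 to 2.35, 3.43-fold, adjusted p = 0.0122 by edgeR's quasi-likelihood test), higher in 3 of 3 libraries. It no longer passed with 5 libraries when the missing library was Xap5l KO replicate 2, WT replicate 2 or WT replicate 3 (adjusted p = 0.0565, 0.0734 and 0.0812 by edgeR), while the log2 fold change stayed between 1.66 and 2.03 over the 6 fits. In each of these 3 fits, 1 entry of the whole table was called upregulated.

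**Figure D2:**
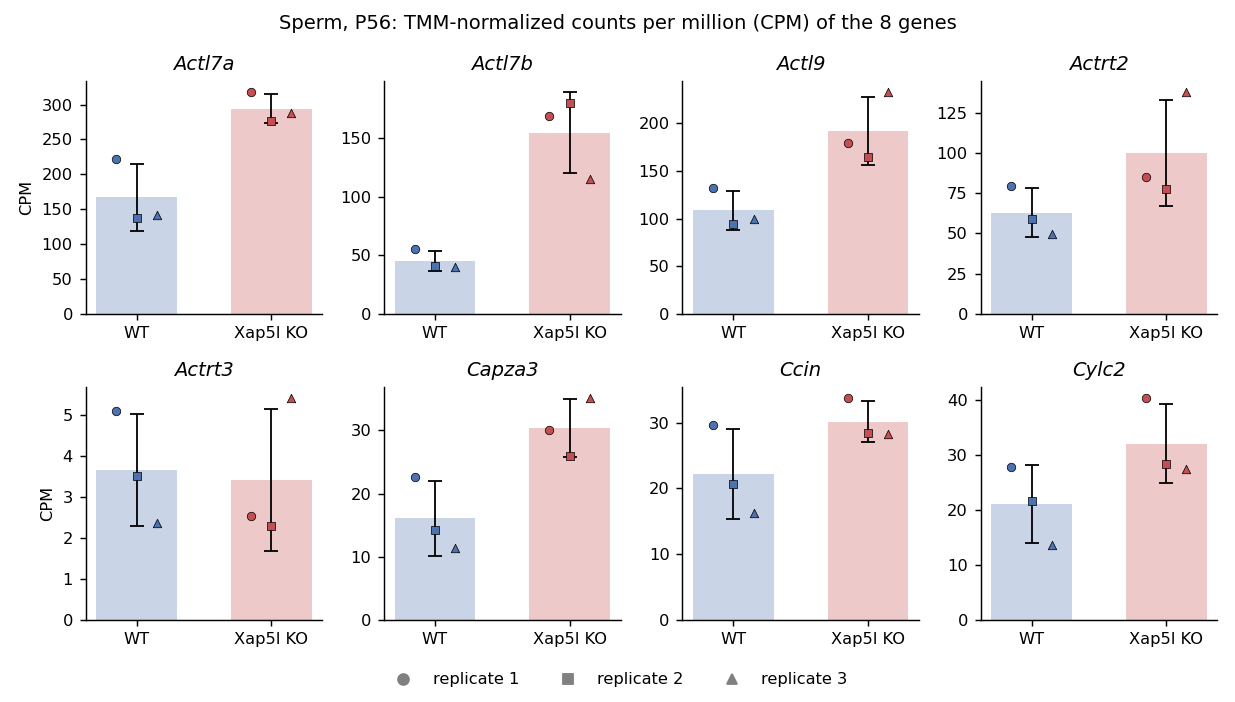
TMM-normalized CPM of the 8 genes in sperm, 1 panel per gene with its own axis from 0, for WT (blue) and Xap5l KO (red). Bars and error bars are the mean and SD of 3 libraries and symbols mark the replicate. Every Xap5l KO library of Actl7a, Actl7b, Actl9 and Capza3 lies above every WT library, and WT replicate 1 is the highest WT library in all 8 panels.

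Actl7a, whose protein sits under the acrosome and anchors it to the nucleus, was at 222, 138 and 141 CPM in WT sperm and at 318, 277 and 288 CPM in Xap5l KO sperm. The groups did not overlap, but the log2 fold change of 0.82 (95% confidence interval 0.24 to 1.39) did not pass the test (adjusted p = 0.0648 by edgeR). Without WT replicate 1, its highest WT library, the value was 1.07 and passed both thresholds (adjusted p = 0.0288 by edgeR), while it was 0.69 without WT replicate 2 and 0.70 without WT replicate 3 (adjusted p = 0.247 and 0.246 by edgeR). Actl9, a known binding partner of Actl7a in the theca, was at 132, 94.3 and 100 CPM in WT and at 179, 165 and 233 CPM in Xap5l KO sperm. Again the groups did not overlap, and the log2 fold change was also 0.82 (95% confidence interval 0.28 to 1.36, adjusted p = 0.0539 by edgeR).

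The neighbours Actl7a and Actl7b could be set against each other within each library, where the scaling between libraries cancels. For every Actl7a count, WT replicates 1, 2 and 3 held 0.249, 0.293 and 0.282 counts of Actl7b, and the Xap5l KO replicates 0.532, 0.651 and 0.401. This ratio was higher in all 3 Xap5l KO libraries, by 0.92 on the log2 scale. Actl7b was set against the others because it was the gene called, so the ratio describes the same difference and was not tested. Over the sum of the other 7 genes, the ratio of Actl7b was also higher in all 3, at 0.246, 0.298 and 0.153 against 0.106, 0.115 and 0.119 for WT, a difference of 0.98 on the log2 scale.

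Capza3, the alpha subunit of the actin capping protein that male germ cells use, was at 22.7, 14.2 and 11.3 CPM in WT and at 30.1, 26 and 35.1 CPM in Xap5l KO sperm. The groups did not overlap, and the log2 fold change of 0.92 (95% confidence interval 0.31 to 1.53) did not pass the test with all libraries (adjusted p = 0.0555 by edgeR). Without WT replicate 1 it was 1.24 and passed (adjusted p = 0.0276 by edgeR), while it was 0.83 without WT replicate 2 and 0.71 without WT replicate 3 (adjusted p = 0.198 and 0.207 by edgeR). The widely expressed subunits of the same heterodimer were at 0.32 for Capza1, -0.51 for Capza2 and 0.11 for Capzb on the log2 fold change scale and did not pass (adjusted p = 0.269, 0.138 and 0.813 by edgeR).

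Actrt2, an actin-related protein of the theca, was at 79.5, 59.1 and 49.7 CPM in WT and at 84.9, 77.8 and 138 CPM in Xap5l KO sperm. Xap5l KO replicate 2 lay below WT replicate 1, and Xap5l KO replicate 3 stood well clear of the WT range. The log2 fold change was 0.67 (95% confidence interval 0.04 to 1.31, adjusted p = 0.128 by edgeR). Actrt3 was at 5.1, 3.52 and 2.37 CPM in WT and at 2.54, 2.29 and 5.42 CPM in Xap5l KO sperm. Its groups overlapped throughout, and the log2 fold change of -0.09 had a 95% confidence interval of -0.98 to 0.80, which spans changes of either sign (adjusted p = 0.889 by edgeR).

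Ccin encodes calicin, a kelch-domain protein of the calyx that is needed for a normal head shape. It was at 29.6, 20.7 and 16.2 CPM in WT and at 33.7, 28.4 and 28.3 CPM in the Xap5l KO libraries. The log2 fold change was 0.45 (95% confidence interval -0.10 to 1.0, adjusted p = 0.227 by edgeR). Cylc2, a basic lysine-rich protein of the calyx, was at 27.8, 21.7 and 13.6 CPM in WT and at 40.3, 28.4 and 27.4 CPM in the Xap5l KO libraries. The log2 fold change was 0.61 (95% confidence interval -0.02 to 1.24, adjusted p = 0.163 by edgeR). For both genes WT replicate 1 lay within the Xap5l KO range, and the other WT libraries lay below it.

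**Figure D3:**
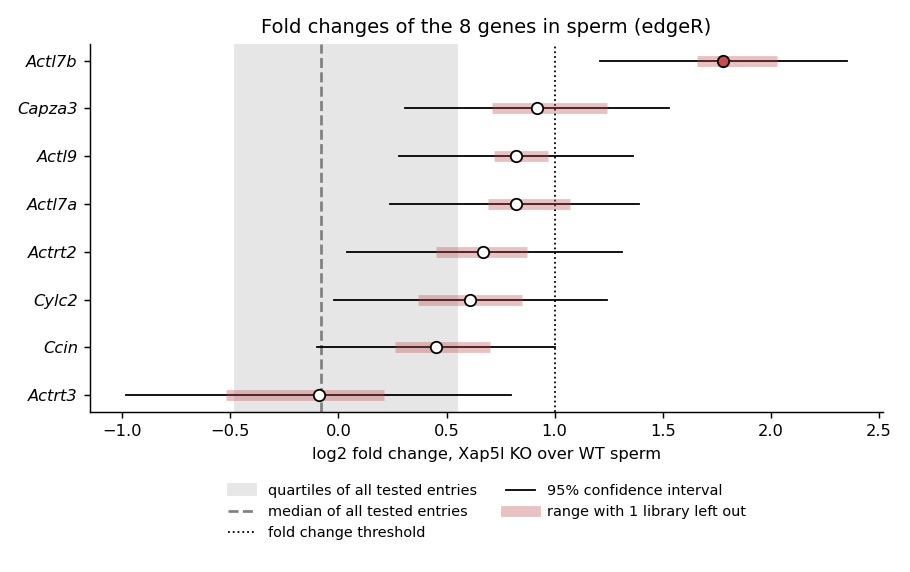
Log2 fold changes of the 8 genes between Xap5l KO and WT sperm (points, filled where called), with 95% confidence intervals (black lines) and the range over fits with 1 library left out (red bars), on the quartiles and median of all tested entries (grey). Actl7b at 1.78 is the point right of the fold change threshold of 1, Capza3, Actl9, Actl7a, Actrt2, Cylc2 and Ccin lie between 0.45 and 0.92, and Actrt3 is at -0.09.

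The test and the libraries decided how many of these genes were called. At an adjusted p under 0.05 without a fold change threshold, edgeR called 1 gene higher (9.02% of all tested entries) and 0 lower (3.07%), and DESeq2 called 4 higher, Actl7a, Actl7b, Actl9 and Capza3 (13.9%), and 0 lower (5.55%). Without WT replicate 1, edgeR called 3 upregulated, Actl7a, Actl7b and Capza3 (8.76% of the entries tested in that fit), and 0 downregulated (1.6%). With replicate 1 of both genotypes left out, the number was 0, as for the whole table, while the log2 fold change of Actl7b was 1.97 (adjusted p = 0.0572 by edgeR) and those of Actl7a, Actl9 and Capza3 were 1.10, 1.12 and 1.34 (adjusted p = 0.0596, 0.0653 and 0.0582 by edgeR). This alternative was chosen after seeing the data. Marker lists of several cell types moved alongside. Round spermatid markers summed to 470 to 773 CPM in WT and 908 to 1174 in Xap5l KO sperm, with 5 of 6 upregulated, and pachytene spermatocyte markers to 1709 to 2726 and 3570 to 3729 CPM, with 3 of 6 upregulated. The spermatid and sperm list had 1 of 8 upregulated and overlapped between genotypes, at 56625 to 139628 CPM in WT and 47751 to 87028 in Xap5l KO. Sertoli cell markers summed to 644 to 761 CPM in the WT libraries and 1056 to 1332 in the Xap5l KO libraries, with 0 called. General epithelium markers were lower, at 244 to 279 against 162 to 226 CPM, as were Leydig cell markers, at 15.1 to 33.6 against 7.24 to 14.7 CPM, with 0 called in either list. The lists of earlier spermatocytes, spermatogonia and peritubular myoid cells overlapped between genotypes and had 0 called. The part of these lists, and of the epididymal and leukocyte markers given above, in the members' values was not tested.

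In P16 testes the question was whether these genes depend on Xap5, and only Actl7b and Actl9 had enough counts to be tested. Both were downregulated in Xap5 cKO testes, as were 10.9% of the 16821 tested entries. They could pass the filter through the WT libraries alone, so their count is no support for a direction. None of the 2 was upregulated (4.15% of all tested entries). At an adjusted p under 0.05 without the fold change threshold, both were lower by edgeR (28.1%) and by DESeq2 (28.2%), and 0 were higher (25% and 26%). At an unadjusted p under 0.05, 2 were lower (30.5%) and 0 higher (27.9%) by edgeR.

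The WT libraries held 518, 459 and 237 counts of Actl7b, against 0, 16 and 4 for the Xap5 cKO libraries, which is 15.4, 12.6 and 6.59 CPM against 0, 0.47 and 0.121 CPM. WT replicate 3 was the lowest WT library, and the groups did not overlap, as held downwards for 32.4% of all tested entries and upwards for 29.9%. The log2 fold change was -5.82 (standard error 0.716, 95% confidence interval -7.44 to -4.20, adjusted p = 0.000167 by edgeR's quasi-likelihood test), lower in 3 of 3 libraries. Its size rested on few counts: it was -7.46 without Xap5 cKO replicate 2 and -5.26 without Xap5 cKO replicate 1, and both values passed the test.

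For Actl9 the counts were 153, 216 and 117 with Xap5 and 8, 4 and 6 without it in germ cells, that is 4.56, 5.93 and 3.25 CPM against 0.249, 0.117 and 0.182 CPM. All 3 Xap5 cKO libraries lay close together and far below the lowest WT library. The log2 fold change was -4.63 (standard error 0.423, 95% confidence interval -5.58 to -3.67, adjusted p = 3.98e-05 by edgeR), and it stayed between -4.90 and -4.38 with 1 library left out.

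**Figure D4:**
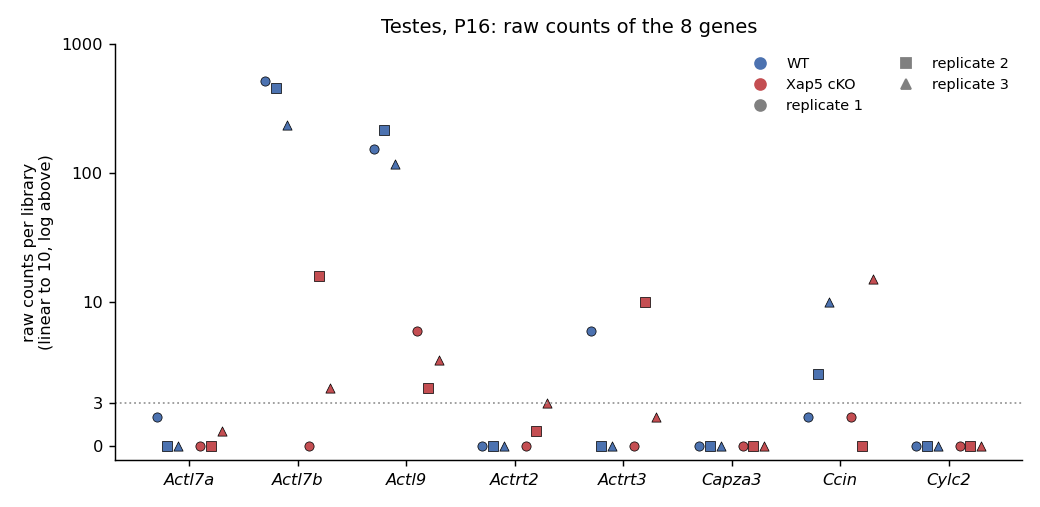
Raw counts of the 8 genes in each P16 testis library (linear axis to 10, log axis above), WT in blue and Xap5 cKO in red, with symbols for the replicate and a dotted line at 3 counts. Actl7b and Actl9 range from 117 to 518 in the WT libraries and from 0 to 16 in the Xap5 cKO libraries, and no other gene exceeds 15 counts in any library.

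The other 6 genes were at or near 0 in testes of both genotypes. Capza3 and Cylc2 had 0 counts in all 6 libraries, which allows a level of up to 0.0823 to 0.0933 CPM per library (3 counts, counting error only). WT libraries held 2, 0 and 0 counts of Actl7a and Xap5 cKO libraries 0, 0 and 1, while its divergent neighbour Actl7b had at least 237 in each WT library. Actrt2 was at 0 in every WT library and at 0, 1 and 3 counts in the Xap5 cKO libraries. For Actrt3, WT counts of 8, 0 and 0 stood against 0, 10 and 2, and for Ccin 2, 5 and 10 against 2, 0 and 15. A difference between genotypes was not detectable for these 6 genes at such low counts.

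Summed markers of every germ cell stage listed were lower or near 0 in Xap5 cKO testes. The pachytene spermatocyte list had 6 of 6 genes downregulated beside Actl7b and Actl9, with sums of 1017 to 2104 CPM in WT and 149 to 233 in Xap5 cKO. Leptotene and zygotene spermatocyte markers had 5 of 6 downregulated, at 1594 to 1852 against 769 to 1075 CPM, and spermatogonial markers 2 of 6, at 709 to 808 against 450 to 497 CPM. The round spermatid list summed to 17.7 to 35.3 CPM in WT and 10.3 to 12.1 in Xap5 cKO, with 1 of its 3 tested genes downregulated. Spaca1 of this list was not lower, at 5.59 to 9.8 CPM in WT and 9.26 to 10.9 in Xap5 cKO (log2 fold change 0.44, not called). Prm2 and Smcp, markers of later spermatids, were at 0 in every testis library. Sertoli cell markers summed to 4320 to 4715 CPM in WT and 7243 to 8755 in Xap5 cKO, with 1 of 6 upregulated. Leydig cell markers had 2 of 5 upregulated, at 177 to 302 against 312 to 659 CPM, and leukocyte markers 4 of 7, at 48.5 to 74.5 against 104 to 134 CPM. Peritubular myoid cell markers summed to 471 to 607 against 680 to 730 CPM, with 0 called. The part of these lists in the fall of Actl7b and Actl9 was not tested.

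Related genes give the setting of the 8. Of 11 other theca genes tested in sperm, 1 was upregulated, Cypt2 of the cysteine-rich perinuclear theca family (log2 fold change 1.12, adjusted p = 0.0268 by edgeR), and the median was 0.71. The members of that family resemble each other in sequence, so reads may have been split between them. The values were 0.71 for Actrt1, a relative of Actrt2, 0.57 for Cylc1, the other cylicin, and 0.81 for Plcz1, the egg-activating phospholipase, and they did not pass the test (adjusted p = 0.0958, 0.221 and 0.0925 by edgeR). Among 5 other testis actin-related and profilin genes, Actl10 and Actl11 were upregulated, with 1.5 and 1.22 (adjusted p = 0.0215 and 0.0359 by edgeR), and Pfn3 was at 0.98 (adjusted p = 0.149 by edgeR).

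Of a list of 8 genes set up for the linkage of acrosome and nucleus, 7 were upregulated in Xap5l KO sperm (7.59% of all tested entries). They were Spaca1, Dpy19l2, Zpbp, Zpbp2, Fam209, Sun5 and Spata46. Their log2 fold changes ran from 1.3 to 1.80, and the median of the list was 1.38. The name of the list is a label, and such a role was not shown here for each gene. Fam71f1 was at 0.49 (adjusted p = 0.181 by edgeR). Spaca1 was also in the round spermatid marker list given above. None of the 15 widely expressed actin and capping genes was called in either direction, and their median was -0.35. Differences between these lists and the 8 genes were not tested.

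In P16 testes, 4 of 12 other theca genes could be tested. The perforatorial fatty acid binding protein Fabp9 was downregulated from 106 ± 34.7 to 3.67 ± 0.803 CPM (mean ± SD, n = 3), and the log2 fold changes of Fabp9, Gsto2 and Wbp2nl were -4.85, -2.47 and -1.2 (adjusted p = 1e-05, 5.63e-05 and 0.00333 by edgeR). Cypt1 had 0 counts in every WT library and 32, 33 and 54 in the Xap5 cKO libraries, at least 14.1-fold higher (adjusted p = 0.000569 by edgeR). Its mean in Xap5 cKO was only 1.2 CPM, and it could pass the filter through these libraries alone, so its call is no support for a direction. Here too, reads may have been split between the like genes of its family. Of the acrosome linkage list, Dpy19l2, Zpbp and Zpbp2 were downregulated with log2 fold changes of -6.40, -1.49 and -4.01, while Spaca1 was at 0.44 (adjusted p = 0.131 by edgeR). The testis profilin Pfn4 fell by 2.67 (adjusted p = 1.86e-05 by edgeR). None of the 15 widely expressed genes passed both thresholds, with a median of 0.15, and Actrt1, Cylc1 and Actl11 had no counts at all.

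**Figure D5:**
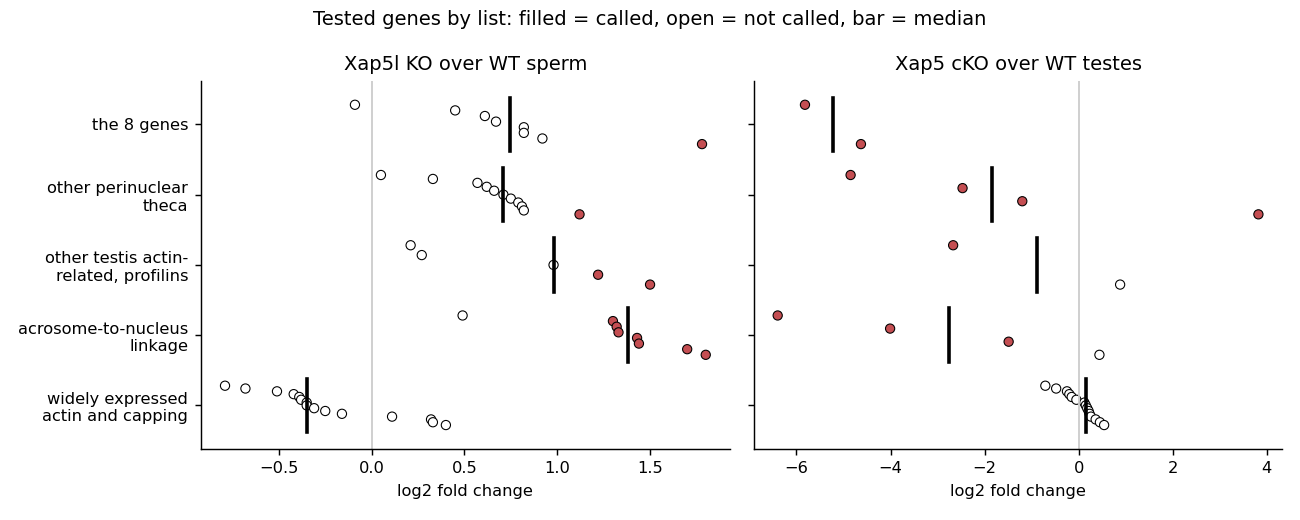
Log2 fold changes of the tested genes of each list in Xap5l KO over WT sperm (left) and Xap5 cKO over WT testes (right), filled where called and open where not, with a bar at the list's median. Cypt1 in testes is drawn at its lower bound of 3.82. The 8 genes have a median of 0.75 in sperm, the linkage list 1.38 and the widely expressed genes -0.35. In testes the tested genes of the first row are Actl7b and Actl9.

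Across both tables, the genes whose pattern was most like that of Actl7b and Actl9 were Ankrd45, Ccdc89, Lrrc46, Cct4 and Ift172, among 8620 candidates with at least 5 CPM in both. Pearson's r over the 12 libraries, on log2 CPM centred within each tissue, was between 0.993 and 0.996. It was set mostly by the large fall in testes, and the libraries share their scaling, so it is a description only. Ankrd45, Ccdc89 and Lrrc46 were called in both comparisons, upregulated in Xap5l KO sperm with log2 fold changes of 1.04, 1.39 and 1.08 and downregulated in Xap5 cKO testes with -2.90, -4.00 and -3.77. Ift172, a subunit of the intraflagellar transport train, was called in testes (-2.26) but not in sperm (0.86, adjusted p = 0.0353 by edgeR). Cct4, a chaperonin subunit, was called in neither (0.31 and -0.89, adjusted p = 0.253 and 2.38e-05 by edgeR). Ift172 in sperm and Cct4 in testes missed the fold change threshold alone.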

How the data were processed

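The authors mapped reads of poly(A) RNA to GRCm38 with HISAT2 2.1.0 after FastQC 0.11.2 and Trimmomatic 0.36, and deposited raw counts per gene entry, 1 table for sperm and 1 for testes. The counting tool, the use of strand and the treatment of multi-mapped reads are not given in the sources used here. Groups came from the sample titles. Each table was fitted on its own, with genotype as the only term: entries were filtered with filterByExpr, TMM-scaled and compared by edgeR's quasi-likelihood test (edgeR 4.0.16, limma 3.58.1, R 4.3.3) with Benjamini-Hochberg adjustment over all tested entries. An entry was called at an adjusted p under 0.05 and a fold change above 2. Per-gene values are CPM on TMM-scaled library sizes, and 1 count corresponded to between 0.0172 and 0.0311 CPM. Standard errors were derived from the log2 fold change and the F statistic. DESeq2 1.42.0 was an alternative. Exon lengths and positions came from GENCODE M21 (GRCm38), promoters from RefSeq (GRCm38.p6). Data were simulated for the 20945 and 16821 entries, with 200 genes changed 4-fold and drawn only from entries above a minimum mean count. Of the tested changed genes, 78.2% were called for sperm and 91.4% for testes. Of the tested unchanged genes, 12 of 20353 were called for sperm and 7 of 16395 for testes. Smaller fold changes were not simulated. The simulated libraries were drawn independently, with no shift shared between libraries beyond their scaling. The rates therefore do not cover such a shift, or the change of the sperm calls with 1 library left out.

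Genes named were the 8 members, the 2 targeted genes, the called genes of 4 related lists, Capza1, Capza2 and Capzb, and the 5 genes with the most similar pattern. Values of Actrt1, Cylc1, Plcz1, Pfn3, Fam71f1 and Spaca1 in testes, which were not called, and the genes of the marker lists at 0 were added after they had been seen. The members and lists were chosen with earlier results of these data known. Replicate numbers were checked for pairing by correlating deviations from the group means of same-numbered WT and mutant libraries. Same-numbered libraries did not deviate alike in every replicate, but with 3 libraries per group this check cannot decide whether libraries shared a batch.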

Additional observations from a re-analysis of the deposited data

How the results depend on the processing

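In testes, the calls of Actl7b and Actl9 held in each alternative run: no filter on low counts, RLE size factors, library size alone, leaving out the 10 most abundant genes, summing numbered entries, DESeq2, a replicate block, no fold change threshold, each library left out in turn, and replicate 1 of both genotypes left out (the last chosen after seeing the data). In sperm, the number of members called upregulated was between 0 and 3 with 1 library left out and 0 with replicate 1 of both genotypes left out, when no entry of the table was called upregulated (edgeR, against 1589 with all libraries). With 1 library left out, 1 to 2402 entries were called upregulated. The other alternatives kept the count at 1, and no member was called downregulated in any. The direction of Actrt3 was not fixed: its log2 fold change was 0.01 with library size alone, 0.47 with replicate 1 of both genotypes left out, and between -0.52 and 0.21 with 1 library left out. The cause of these changes was not tested.

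Deviations of same-numbered libraries had correlations of 0.166, -0.024 and -0.122 in sperm and 0.00711, -0.0302 and -0.0345 in testes. Between libraries of different numbers they ran from -0.179 to 0.241 in sperm and from -0.0625 to 0.083 in testes. The highest in sperm was that of WT replicate 3 with Xap5l KO replicate 2. The numbers were taken as names only, although so few libraries cannot decide whether some shared a batch. With a replicate block, 1 member was called upregulated in sperm (Actl7b, log2 fold change 1.77, adjusted p = 0.0281 by edgeR) and 2 downregulated in testes, and the calls of all entries in sperm changed from 1589 up and 267 down to 1147 and 147. The 6 untested genes in testes had at most 15 counts in any library, too few for a difference to be seen.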
